A study of Mus musculus with 491 samples.

Results

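The 7 genes described here, Oc90, Wfdc2, Wfikkn1, Vnn1, Car14, Car2 and Fbxo2, were taken by name from the 19494 genes of the deposited table. They were chosen by measured values: in earlier work on these same 491 cells they were leading genes of the otic epithelial cells. Differences of these 7 genes between otic and other cells are therefore descriptions and carry no test. The 7 were tested only in splits among otic cells by 4 other genes. The 4 splits were chosen with earlier results of these data known, and Dlx5 was also a marker used for clustering. The splits are therefore not independent of the data that chose the 7.

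The cells came from the otic vesicle, the epithelial cup that becomes the inner ear, and from the periotic tissue around it, dissected from mouse embryos at stage E10.5, in mid-gestation. Every cell had the same genotype, Pax2-Cre/+;Ai14-tdTomato/+, and no untreated or mutant group was part of the design. Cre driven by the Pax2 transgene switches on the red tdTomato reporter, so the sort for tdTomato held cells of the Pax2-Cre lineage and their descendants, not otic cells alone. Each library was 1 sorted cell in 1 well of a plate, with 237 cells of replicate 1 on 3 plates and 254 cells of replicate 2 on 3 further plates, and the sources used here do not say what a replicate stands for.

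The fluid of the inner ear is held at an unusual ion and calcium composition by its epithelium, and carbonic anhydrases, which interconvert carbon dioxide and bicarbonate, are part of that control. Otoconia, the crystals that load the gravity-sensing organs, form from calcium carbonate on a protein matrix whose main constituent is otoconin 90, the product of Oc90. Of the other genes, Wfdc2 encodes a secreted protein with WAP domains of the protease-inhibitor type, and Wfikkn1 a secreted multidomain protein that binds myostatin and GDF11. Vnn1 encodes vanin 1, a membrane-anchored pantetheinase that releases cysteamine and pantothenate. Car14 encodes a membrane carbonic anhydrase with its active site outside the cell, and Car2 a cytosolic one. Fbxo2 encodes an F-box protein that recognises high-mannose glycans on glycoproteins, so Fbxo2 and Car2 act inside the cell and the name secretory does not describe them.

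On the mm10 (GRCm38) build the genes lay on 6 chromosomes. Oc90 occupied chr15:65876053-65912397 on the minus strand with 15 exons, Wfdc2 chr2:164562413-164568510 on the plus strand with 5, and Vnn1 chr10:23894688-23905343 on the plus strand with 7. Fbxo2 occupied chr4:148160621-148166424 on the plus strand with 6 exons. Car2 (chr3:14886273-14900770, plus strand, 7 exons) and Car14 (chr3:95897768-95904691, minus strand, 11 exons) shared chromosome 3. Car14 overlapped Aph1a on the opposite strand, and Wfikkn1 (chr17:25877628-25880858, minus strand, 2 exons) overlapped the lincRNA Gm26694 on the opposite strand. The sources used here do not say whether the counting used the strand, so for Car14 and Wfikkn1 reads of the overlapping gene cannot be told apart.

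Promoter sequences from RefSeq on GRCm38.p6, 250 bases before to 50 after the start of transcription, were matched for 4 of the 7 genes: Fbxo2, Wfdc2, Car14 and Wfikkn1. Car14, Wfikkn1 and Wfdc2 are shown because the first 2 differed between otic cells with and without Tbx1, a T-box transcription factor, while Wfdc2 holds the T-box core letters. Capitals mark CACACC, the reverse complement of GGTGTG. The windows are chr3:95904636-95904935 (minus strand) for Car14, chr17:25880809-25881108 (minus strand) for Wfikkn1 and chr2:164562465-164562764 (plus strand) for Wfdc2.
Car14: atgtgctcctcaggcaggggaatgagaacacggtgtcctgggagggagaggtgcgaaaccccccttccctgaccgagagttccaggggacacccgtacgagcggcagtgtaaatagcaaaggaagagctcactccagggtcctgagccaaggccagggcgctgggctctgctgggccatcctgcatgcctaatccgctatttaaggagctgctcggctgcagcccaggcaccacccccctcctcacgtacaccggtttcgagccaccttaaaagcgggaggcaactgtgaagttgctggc
Wfikkn1: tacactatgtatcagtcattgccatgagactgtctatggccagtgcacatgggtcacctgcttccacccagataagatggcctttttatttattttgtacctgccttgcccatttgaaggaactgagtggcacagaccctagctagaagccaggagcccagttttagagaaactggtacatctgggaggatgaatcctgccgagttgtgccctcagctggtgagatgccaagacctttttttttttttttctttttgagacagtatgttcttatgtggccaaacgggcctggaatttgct
Wfdc2: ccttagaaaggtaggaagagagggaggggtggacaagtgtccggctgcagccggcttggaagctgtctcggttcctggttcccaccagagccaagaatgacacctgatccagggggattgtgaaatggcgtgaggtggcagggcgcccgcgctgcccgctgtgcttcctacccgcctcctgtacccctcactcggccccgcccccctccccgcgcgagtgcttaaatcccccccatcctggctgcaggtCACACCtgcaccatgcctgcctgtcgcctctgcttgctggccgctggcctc
On both strands, GGTGTG was in 1 of the 4 matched promoters and in 19.0% of all 32851 RefSeq promoters. The SOX core letters ACAAAG or ACAATG were in 0 of 4 and in 28.6% of all, the homeodomain letters TAATTA in 0 of 4 and in 5.29%, and TATAAA in 0 of 4 and in 13.6%. These are matches of letters in 1 short window and show neither binding nor its absence. The GC content was 61% for Car14, 46% for Wfikkn1, 65.3% for Wfdc2 and 69% for Fbxo2.

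Levels are log2(FPKM + 1), where FPKM is the number of fragments scaled to transcript length and to the mapped fragments of the library. A gene was called found in a cell at an FPKM of at least 1. Cells had 2552 to 6403 genes found (median 4513), with medians of 4471 in replicate 1 and 4572 in replicate 2, and 75.0% of all values were 0. Depth in reads is unknown, so the intervals on shares of cells cover the number of cells alone. Rare transcripts also recurred between wells, a pattern called transfer here, whose cause was not tested. In 19 pairs of plate rows they recurred in the same column of both rows in both replicates, and the well called the receiving one held a median of 4.80% of the level of the source well (quartiles 2.19% and 10.12%). Of the 491 cells, 337 sat in a receiving well and 154 did not. Shares below are given also for cells without a source well, or with values at or under 20% of the source well set to 0, here called corrected.

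Otic epithelium-like cells were 134 cells in 3 clusters (clusters 1, 3 and 8), made by clustering the cells on 65 marker genes that excluded the 7. The labels give no cell type beyond tdTomato+, so the class carries the ending -like. Of its 10 markers, the epithelial adhesion gene Epcam was found in 100% of these cells, Tbx2 in 93.3%, Sox10 in 85.1%, and Dlx5 and Lmx1a each in 71.6%, while Pax8 was found in 35.1% and Pax2 in 15.7%. The median over the 10 was 63.8% in otic epithelium-like cells, against 3.66% in surface ectoderm-like cells, where the 10 ran from 0% to 100%. It was 12% in early neuroblast-like, 5.56% in neural tube progenitor-like and 10.9% in mesenchyme-like cells. The clusters were made from genes of these marker lists, so such contrasts between classes follow from the clustering. Markers of other types in the otic epithelium-like cells had medians of 2.99% for the mesenchyme list (2.24% to 38.8%), 7.46% for the early neuroblast list (0.746% to 22.4%), 0.746% for the surface ectoderm list (0% to 47.0%) and 19.4% for the neural crest list (0% to 57.5%). The 6 macrophage markers were each at 0.746%, which is 1 cell.

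All 7 genes had their highest mean level in otic epithelium-like cells or, for Vnn1, were level there with surface ectoderm-like cells. On the per-length FPKM scale, the order of mean log2 levels in otic epithelium-like cells was Wfdc2, Car2, Car14, Wfikkn1, Oc90, Vnn1 and Fbxo2. Over the 6 plates the ranges of plate means overlapped for every pair of neighbours in that order. Compared within plates, Wfdc2 was above Car2 and Oc90 above Vnn1 on 6 of 6 plates, and Car2 above Car14 and Car14 above Wfikkn1 on 5. Wfikkn1 was above Oc90 on 3 plates and Vnn1 above Fbxo2 on 4, with mean differences of 0.32 ± 1.04 and 0.33 ± 1.16 (SD over 6 plates), smaller than their spread. The mean difference of Car2 from Car14 was also smaller than its spread, at 0.15 ± 1.67. The number of genes found per cell moved little with any of the 7 among the 130 otic epithelium-like cells that passed the Epcam threshold described further on (Spearman rho from -0.04 to 0.09).

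Oc90, the otoconial matrix gene, had the widest range of the 7. It was found in 109 of 491 cells (22.2%), with a median log2 level of 6.78 where found and a highest value of 12.13. In otic epithelium-like cells it was found in 81 of 134 (60.4%, exact Clopper-Pearson 95% interval 51.6% to 68.8%), with a mean of 4.41 ± 4.1 (SD over cells) and a median of 4.86. The other 357 cells had it in 28 (7.84%), with a mean of 0.36. Otic cells thus ran from no Oc90 to the highest level of any of the 7. Replicate means in otic epithelium-like cells were 4.64 and 4.18, and plate means ran from 2.72 to 5.56. Outside the otic class, early neuroblast-like cells had replicate means of 1.29 and 0.63, surface ectoderm-like cells 0.58 and 0.00, and cluster 9 had it in 0 of 27 cells, which at 3 cells of the 27 allows a share of up to 11.11%. The presence of Oc90 outside the otic class went with the source well. It was found in 23 of 52 non-otic cells whose source well held it (44.2%), in 4 of 192 whose source well did not (2.08%), and in 1 of 113 without a source well (0.885%). Corrected, 52.2% of the otic epithelium-like and 1.4% of other cells had Oc90, and early neuroblast-like cells had it in 0 of 41.

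Wfdc2 was the most uniform of the 7 among otic cells. It was found in 130 of the 134 otic epithelium-like cells (97.0%, interval 92.5% to 99.2%), with a mean of 7.22 ± 1.76 (SD over cells), a median of 7.66 and a highest value of 9.61, and in 37.8% of the other cells, with a mean of 1.77. Replicate means were 7.06 and 7.38, and plate means ran from 6.1 to 7.96. Next in order were surface ectoderm-like cells, with replicate means of 2.80 and 3.36, and early neuroblast-like cells, with 2.75 and 3.04, which did not differ beyond that spread. Neural tube progenitor-like cells were at 0.75 and 1.43. Wfdc2 was found in 64.7% of non-otic cells whose source well held it, 17.6% whose source well did not and 24.8% without a source well. Corrected shares were 94.0% of the otic epithelium-like, 48.8% of surface ectoderm-like and 34.1% of early neuroblast-like cells, so a share of cells outside the otic class remained.

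Wfikkn1, whose product binds myostatin and GDF11, was found in 78.4% of the otic epithelium-like cells (interval 70.4% to 85.0%) and in 25.2% of the others. Its mean in otic epithelium-like cells was 4.65 ± 2.87 (SD over cells), the median 5.64 and the highest value 9.72, against a mean of 1.07 in other cells. Replicate means were 4.92 and 4.39, and plate means had the narrow range of 4.05 to 5.17. Differentiating neuron-like cells came next, with replicate means of 1.72 and 1.95 and the gene found in 42.3%, followed by mesenchyme-like cells at 1.16 and 1.79. Epibranchial neuron-like cells (0.47 and 0.60) and surface ectoderm-like cells (0.47 and 0.30) were lowest. In cells without a source well Wfikkn1 was found in 65.9% of the otic epithelium-like and 14.2% of other cells.

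Vnn1, the pantetheinase gene, was found in 64 of the 134 otic epithelium-like cells (47.8%, interval 39.1% to 56.6%), with a mean of 2.99 ± 3.43 (SD over cells), a median of 0 and a highest value of 10.64. Surface ectoderm-like cells had it in 51.2% (35.1% to 67.1%), with a mean of 2.98. Otic epithelium-like replicate means were 3.13 and 2.84 and surface ectoderm-like means 3.26 and 2.72, so the replicate values of the 2 classes overlapped. Early neuroblast-like cells followed, at 1.65 in replicate 1 and 0.32 in replicate 2, but corrected they had it in 1 of 41 cells (2.44%), with a mean of 0.15. Uncorrected, differentiating neuron-like cells had it in 1.92%. Corrected, Vnn1 was found in 38.8% of the otic epithelium-like and in 19 of 41 surface ectoderm-like cells (46.3%), which keeps most of the surface ectoderm-like cells that had it. Over all non-otic cells it was found in 55.9% where the source well held it, 4.32% where it did not and 7.96% without a source well.

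Car14, the membrane carbonic anhydrase gene, was the most widely found of the 7, in 289 of 491 cells (58.9%). In otic epithelium-like cells it was found in 84.3% (interval 77.1% to 90.03%), with a mean of 5.46 ± 2.74 (SD over cells), a median of 6.47 and a highest value of 8.88. Other cells had it in 49.3%, with a mean of 2.51. Replicate means were 5.63 and 5.3 in otic epithelium-like cells, against 4.82 and 3.38 in mesenchyme-like cells, 3.43 and 4.05 in cluster 4, 2.92 and 3.66 in cluster 9, 3.66 and 3.04 in early neuroblast-like cells, and 2.96 and 2.22 in neural tube progenitor-like cells. These 5 overlapped one another over the replicates, except that neural tube progenitor-like cells lay below early neuroblast-like cells, cluster 4 and mesenchyme-like cells. Differentiating neuron-like (1.11 and 1.46) and epibranchial neuron-like cells (1.27 and 1.43) were lowest. Car14 was found in 72.7% of non-otic cells whose source well held it, 27.7% whose source well did not and 38.9% without a source well. Corrected, it was found in 78.4% of the otic epithelium-like and 31.9% of all other cells. By class the corrected shares were 69.6% of mesenchyme-like, 43.9% of early neuroblast-like, 33.3% of neural tube progenitor-like and 22.0% of surface ectoderm-like cells.

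Car2, the cytosolic carbonic anhydrase gene, was more restricted than Car14 in these cells. It was found in 85.1% of the otic epithelium-like cells (interval 77.9% to 90.6%) and in 17.4% of the others, with means of 5.57 ± 2.75 (SD over cells) and 0.71. The median in otic epithelium-like cells was 6.07 and the highest value 9.83. Replicate means there were 4.92 and 6.21, the widest gap between replicates among the 7. Plate 2 of replicate 1 was lowest, at 3.46 with Car2 found in 58.3% of its otic epithelium-like cells, while the other 5 plates had it in 87.5% to 95.5%. The other plates of replicate 1, at 5.93 and 5.63, also lay below those of replicate 2, at 6.09, 6.53 and 6.01. Cluster 9 (1.2 and 1.84) and mesenchyme-like cells (1.37 in both replicates) came next, and surface ectoderm-like cells at 0.18 and 0.30. Without a source well, Car2 was found in 85.4% of the otic epithelium-like and 9.73% of other cells.

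Fbxo2, the glycan-recognising F-box gene, was found in 64.2% of the otic epithelium-like cells (interval 55.4% to 72.3%) and 12.61% of the others. Its mean in otic epithelium-like cells was 2.64 ± 2.19 (SD over cells), with a median of 3.08 and a highest value of 6.47, the lowest maximum of the 7. Replicate means were 2.52 and 2.75, and plate means varied least of the 7, from 2.34 to 2.84. Epibranchial neuron-like cells formed a second group with Fbxo2, with replicate means of 1.43 and 1.89 and the gene found in 37.0% (23.2% to 52.5%). Early neuroblast-like cells had it in 4.88%. Non-otic cells had Fbxo2 in 20.6% where the source well held it, 8.84% where it did not and 14.2% without a source well.

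**Figure D1:**
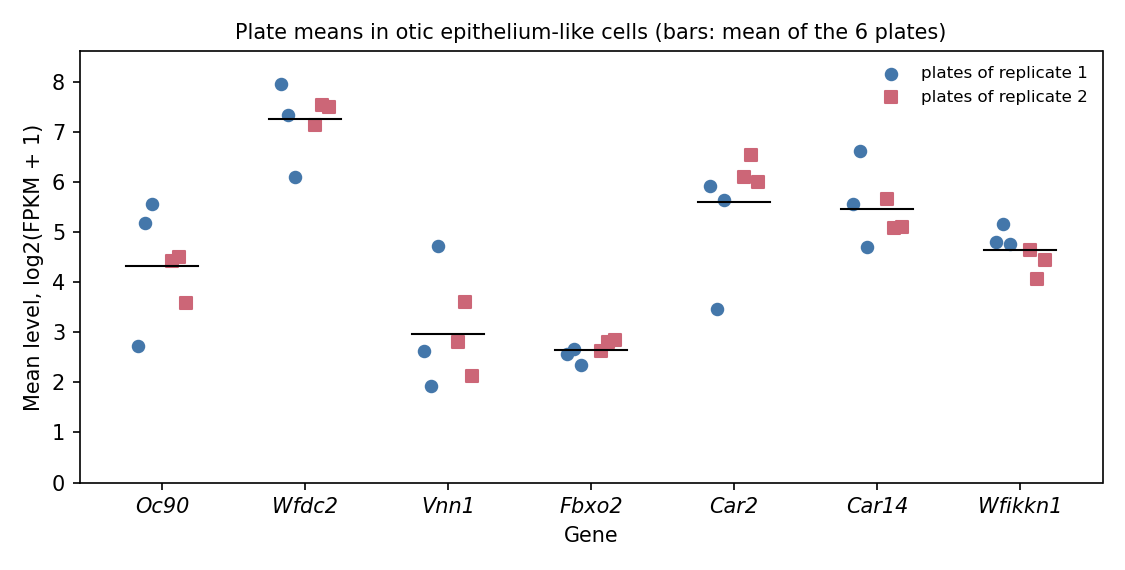
Mean log2(FPKM + 1) level of each of the 7 genes in the otic epithelium-like cells of each of the 6 plates (18 to 24 cells a plate), replicate 1 plates and replicate 2 plates marked apart. Fbxo2 and Wfikkn1 vary least over plates, and Car2 on plate 2 lies at 3.46, below the other 5 plates.

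The 7 genes were found together mainly in otic epithelium-like cells, the class they were chosen for. Otic epithelium-like cells had a median of 5 of the 7 found per cell, with at least 5 in 96 of 134 (71.6%), all 7 in 17 cells and none of them in 0 cells. The other 357 cells had a median of 1, with at least 5 in 22 (6.16%), all 7 in 0 cells and none of them in 79. Surface ectoderm-like cells had a median of 2 and at least 5 in 1 of 41 cells (2.44%), and early neuroblast-like cells had at least 5 in 6 of 41 (14.6%). All 17 cells with the whole set were otic epithelium-like. These counts per cell were not corrected for transfer, which can add genes to a receiving well. Corrected, early neuroblast-like cells had Oc90 in 0 of 41 cells, and Vnn1 and Fbxo2 each in 1 of 41.

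**Figure D2:**
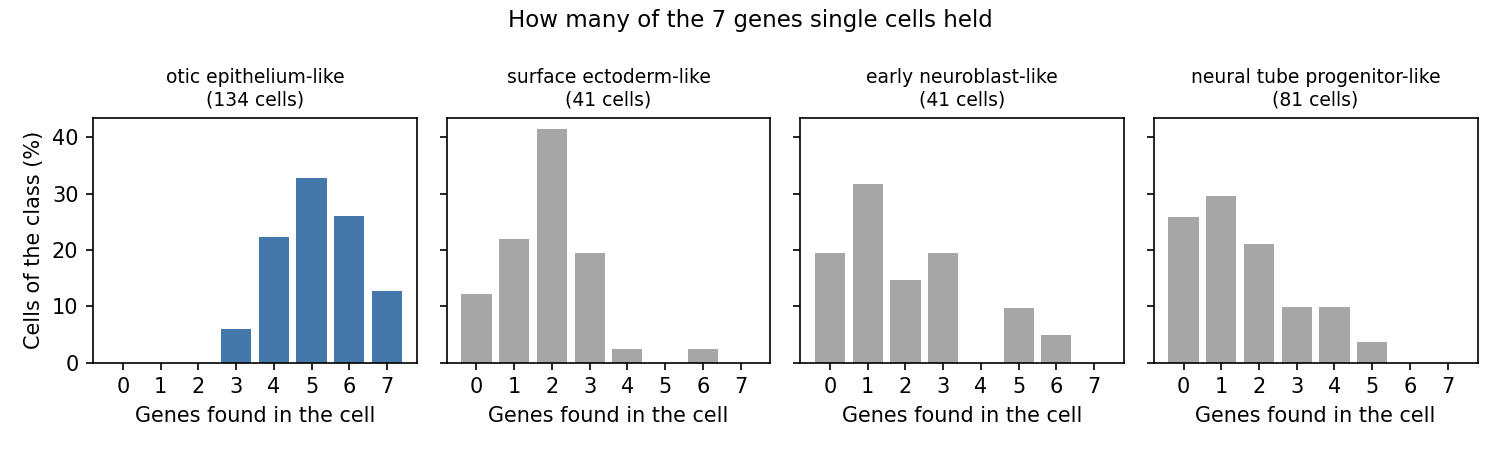
Share of cells (percent) by how many of the 7 genes were found in a cell, for the otic epithelium-like cells and other classes. Otic epithelium-like cells centre on a median of 5 genes and surface ectoderm-like cells on 2. Early neuroblast-like and neural tube progenitor-like cells each have a median of 1.

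The 3 otic clusters held different mixes of the 7. They were made from the same cells, so the values are a description. Cldn6, Krt18, Epcam and Wfdc2 were leading genes of all 3 clusters against all other cells. Leading genes of cluster 3 (51 cells) also included Gbx2, Lmx1a, Dlx5 and Wnt6 and, of the 7, Car2, Vnn1 and Oc90. Those of cluster 1 (54 cells) also included Cldn9, Tbx2 and Car14, and those of cluster 8 (29 cells) Wfikkn1 and Oc90. Vnn1 was found in 80.4% of cluster 3, in 44.8% of cluster 8 and in 18.5% of cluster 1. Its replicate means were 5.68 and 4.79 in cluster 3 and 0.86 in both replicates of cluster 1. Car14 was instead lowest in cluster 3, found in 62.7% of its cells, against 96.3% of cluster 1 and 100% of cluster 8. Car14 replicate means were 6.73 and 6.99 in cluster 1 and 4.14 and 3.44 in cluster 3. Car2 was found in 98.0% of cluster 3, 79.3% of cluster 8 and 75.9% of cluster 1. Oc90 was found in 72.5%, 62.1% and 48.1% of clusters 3, 8 and 1. Wfikkn1 had its highest mean, 6.0, in cluster 8, against 4.67 in cluster 1 and 3.86 in cluster 3. Wfdc2 and Fbxo2 moved least, with Wfdc2 found in 93.1% to 100% and Fbxo2 in 58.6% to 68.6% of each cluster. All 7 were found together in 13 cells of cluster 3, 3 of cluster 8 and 1 of cluster 1.

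Co-expression was described over the 209 cells with an Epcam level of at least 5 (an FPKM of 31), of which 130 were otic epithelium-like, 36 surface ectoderm-like and 43 of other classes. Spearman rho over these cells was above 0 for 20 of the 21 pairs of the 7 genes, with a median of 0.27. The highest was Wfdc2 with Car2 (0.49), which were both found in 120 cells where 104 would be found together if independent. Oc90 with Car2 had 0.46, with 72 cells holding both against 49.6 if independent, followed by Oc90 with Wfikkn1 (0.43), Car14 with Wfikkn1 (0.42) and Car2 with Wfikkn1 (0.40). Vnn1 with Car14 was the single pair below 0, at -0.12. The median was 0.29 in replicate 1 and 0.28 in replicate 2. These cells share plates, wells and a class mix, so the values are descriptions. Epcam itself ran with Wfdc2 (0.44) and Car2 (0.39) over the same cells, and its part in the pairs was not tested.

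Among the 130 otic epithelium-like cells of that threshold the signs were mixed. The median over the 21 pairs was -0.03, with 9 above and 12 below 0, and was -0.02 in replicate 1 and 0.03 in replicate 2. Vnn1 with Car14 was lowest, at -0.33 (-0.35 and -0.33 in the replicates), with both found in 47 cells where 51.2 would be if independent. Oc90 with Vnn1 was highest, at 0.26 (0.33 and 0.19), followed by Oc90 with Wfikkn1 at 0.21 (0.24 and 0.18) and Vnn1 with Car2 at 0.18 (0.24 and 0.15). The 2 carbonic anhydrase genes ran against each other, at -0.18 (-0.12 and -0.27). Of the 21 pairs, 7 were above 0 in both replicates, 7 below 0 in both, and 7 had opposite signs. The median was 0.00 after correction and -0.04 in cells without a source well.

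**Figure D3:**
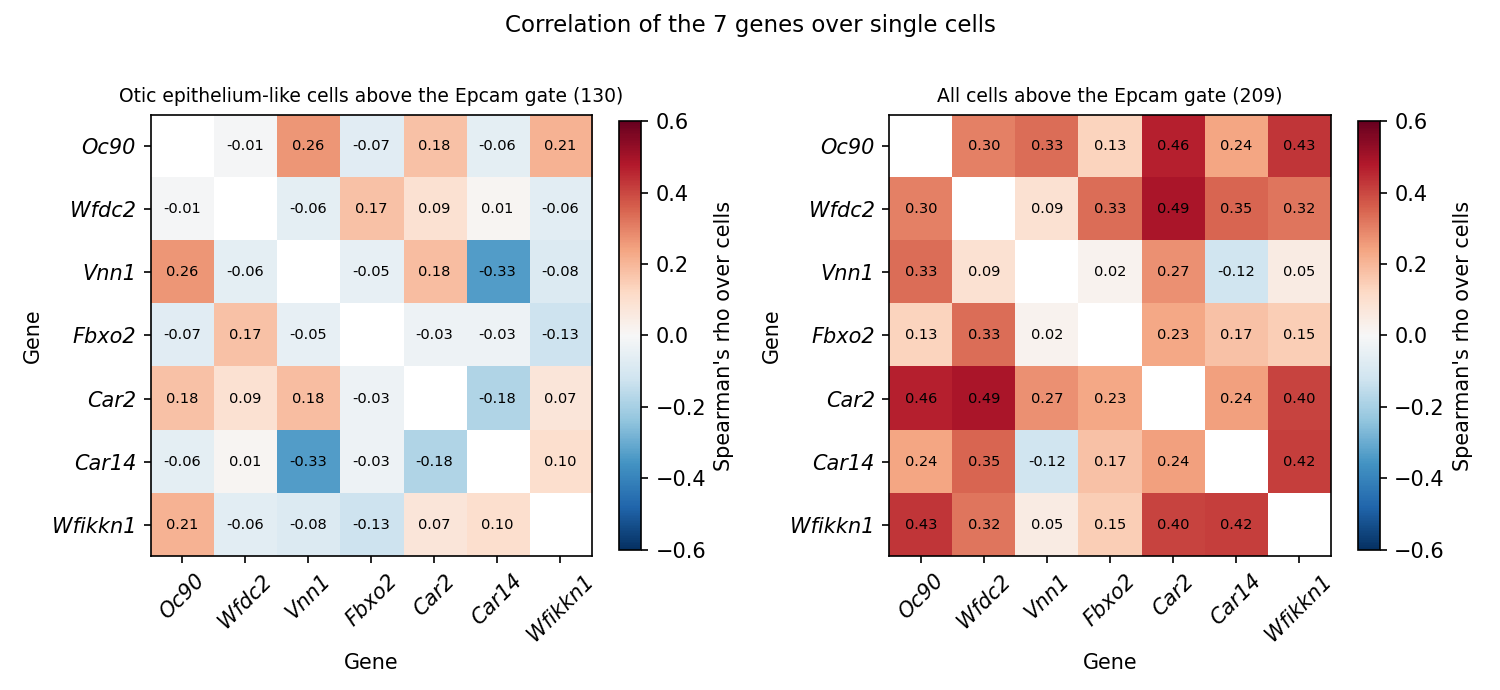
Spearman rho for each of the 21 pairs of the 7 genes over the 130 otic epithelium-like cells with an Epcam level of at least 5, and over all 209 cells of that level. Pairs centre near 0 within the otic epithelium-like cells (median -0.03), where Vnn1 with Car14 is the lowest pair, and are mostly positive over all 209 cells (median 0.27).

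The genes most like each of the 7 were read from the same 209 cells, over 7385 genes found in at least 20% of them. Oc90 was most like Dlx5 (rho 0.56), a homeodomain transcription factor gene of the dorsal otic vesicle, Prss56 (0.55), a serine protease gene, and Col9a3 (0.52), a collagen IX chain. Wfdc2 was most like Ldhb (0.58), Tbx2 (0.51) and Sox10 (0.51), and Wfikkn1 most like Id3 (0.47) and Gata2 (0.45). Vnn1 was most like the ligand gene Wnt6 (0.49), the keratin gene Krt19 (0.45) and Car4 (0.43), itself a membrane-anchored carbonic anhydrase. Car14 was most like Tbx2 (0.44), Nop56 (0.43) and Tbx1 (0.43), and Car2 like Ptn (0.62), Gbx2 (0.57) and Sox9 (0.55). Fbxo2 had the weakest likenesses, to Sox10 (0.34), Tmem59l (0.34) and BC006965 (0.32). Averaged over the 7, the 10 most alike included BC006965 (0.39), Sox9 (0.38), Ptn (0.38), Sox10 (0.36), Dlx5 (0.35), Tbx2 (0.35), Col11a1 (0.34), Ldhb (0.34) and Col2a1 (0.34). Dlx5, Sox10, Tbx2, Gbx2 and Wnt6 were among the markers used for clustering.

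Likeness changed when only the 130 otic epithelium-like cells were used (7493 genes). Oc90 was then most like Cldn8 (0.53), S100a11 (0.50) and Perp (0.48), and Vnn1 like Wnt6 (0.55), Gnas (0.50) and Lhfp (0.49). Car14 was most like Rrm2 (0.49), a ribonucleotide reductase gene of dividing cells, Nop56 (0.44) and Ranbp1 (0.41). Wfikkn1 was most like Id3 (0.50), and Car2 like Col11a1 (0.42). The highest mean over all 7 was 0.17, for Notum.

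The 134 otic epithelium-like cells were then split by whether they held Tbx1, Dlx5, Fgf10 or Top2a. Tbx1 and Dlx5 are transcription factor genes of regions of the otic epithelium, Fgf10 encodes a growth factor of its neurosensory side, and Top2a marks dividing cells. Means per state and replicate were fitted with limma with the replicate as a block, over 10135 genes, and each p was adjusted over all of them by the Benjamini-Hochberg method. With 4 means a fit had 1 residual degree of freedom and an infinite prior, so its spread is the one pooled over genes. The adjusted p of a fit on 12 means per plate is therefore given beside each call of the 7 genes, with the plates whose removal ended it. Some plate means rest on few cells. The smallest plate groups held 6 Tbx1-detected, 3 Dlx5-undetected, 5 Fgf10-detected and 3 Top2a-undetected cells. All 7 genes passed the filter, which kept genes found in 5% or more of the cells.

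Tbx1 was found in 60 of the otic epithelium-like cells and not in 74, and Oc90, Car14 and Wfikkn1 were higher where it was found. Oc90 had replicate means of 6.19 and 5.80 in Tbx1-detected cells, against 3.35 and 2.90 in Tbx1-undetected cells. The replicate means of the 2 states did not overlap. Oc90 was found in 76.7% against 47.3% of cells, and the difference was 2.87 (SE 0.38, limma adjusted p = 8.52e-11). It was above 0 on 6 of 6 plates (0.49 to 5.44), with an adjusted p of 0.0380 on means per plate. Car14 had replicate means of 6.51 and 6.34 in Tbx1-detected cells, against 4.89 and 4.48 in Tbx1-undetected cells, and was found in 93.3% against 77.0%. The difference was 1.74 (SE 0.31, adjusted p = 9.04e-06), above 0 on 6 of 6 plates (0.27 to 2.68), with 0.0460 on means per plate. Wfikkn1 had 5.6 and 5.4 in Tbx1-detected cells, against 4.35 and 3.59 in Tbx1-undetected cells, a difference of 1.53 (SE 0.37, adjusted p = 0.00655), but it was above 0 on 4 of 6 plates and had an adjusted p of 0.239 on means per plate. These 3 of 7 genes stand beside 1.07% of all 10135 genes called in this split. Vnn1 (-1.07, adjusted p = 0.309), Car2 (-0.72, 0.366), Wfdc2 (-0.56, 0.0957) and Fbxo2 (-0.04, 0.987) did not pass.

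Leaving out plate 2 ended the Tbx1 calls of all 3 genes, with an adjusted p of 0.150 for Oc90. Leaving out plate 3 or 5 also ended those of Car14 and Wfikkn1. In cells without a source well the Oc90 difference was 3.62 (adjusted p = 0.0320) and that of Car14 1.57 (0.672). Over the 15 alternatives tried, the limma adjusted p ran from 2.53e-12 to 0.150 for Oc90, 3.06e-06 to 0.672 for Car14 and 0.000594 to 0.747 for Wfikkn1. Tbx1-detected and Tbx1-undetected cells had medians of 4746 and 4798.5 genes found, and 26.7% and 33.8% of them had no source well.

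Dlx5 was found in 96 otic epithelium-like cells and not in 38, and it divided the 7 genes differently: Oc90, Vnn1 and Car2 were higher where Dlx5 was found and Car14 was lower. Oc90 had replicate means of 5.41 and 4.93 in Dlx5-detected cells, against 2.74 and 2.23 in Dlx5-undetected cells, with the gene found in 69.8% against 36.8%. The difference was 2.69 (SE 0.44, limma adjusted p = 4.24e-06), above 0 on 6 of 6 plates (1.08 to 4.08), with 0.0363 on means per plate. Car14 had 5.22 and 4.70 in Dlx5-detected cells, against 6.64 and 6.83 in Dlx5-undetected cells, and was found in 79.2% against 97.4%. Its difference was -1.77 (SE 0.30, adjusted p = 1.5e-05), below 0 on 6 of 6 plates (-2.58 to -0.86), with 0.0363 on means per plate. So for both genes the replicate means of the 2 states did not overlap, and the differences lay in opposite directions.

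Vnn1 had replicate means of 4.0 and 3.39 in Dlx5-detected cells, against 0.99 and 1.44 in Dlx5-undetected cells, a difference of 2.48 (SE 0.47, limma adjusted p = 0.000126), above 0 on 5 of 6 plates. Car2 had 5.36 and 6.62 in Dlx5-detected cells, against 3.83 and 5.14 in Dlx5-undetected cells, a difference of 1.5 (SE 0.35, adjusted p = 0.00625), above 0 on 6 of 6 plates. The Car2 replicate values of the 2 states overlapped, since its level also differed between replicates. On means per plate neither passed, with adjusted p of 0.135 for Vnn1 and 0.208 for Car2. The 4 of 7 genes called stand beside 0.888% of the 10135 genes, and Wfikkn1 (0.87, adjusted p = 0.423), Wfdc2 (-0.11, 0.926) and Fbxo2 (-0.25, 0.926) did not pass. Without plate 5 limma called 0 genes (768 had an unadjusted p below 0.05), and the adjusted p of both Oc90 and Car14 was 0.308. Plate 3 also ended the calls of Vnn1 and Car2, and plate 2 that of Car2. Without the replicate block the adjusted p was 0.0919 for Oc90, Vnn1 and Car14 and 0.437 for Car2, and in cells without a source well it was 0.0772 for Oc90. Over the 15 alternatives it ran from 4.75e-08 to 0.308 for Oc90, 2.53e-06 to 0.507 for Vnn1, 5.62e-05 to 0.768 for Car2 and 7.34e-07 to 0.659 for Car14. Dlx5-detected and Dlx5-undetected cells had medians of 4839.5 and 4656 genes found, and 26.0% and 42.1% had no source well. Dlx5 was a clustering marker, and its likeness to Oc90 above comes from the same cells.

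Fgf10 was found in 42 otic epithelium-like cells and not in 92, and Oc90 and Vnn1 were lower where it was found. Oc90 had replicate means of 3.14 and 2.91 in Fgf10-detected cells, against 5.35 and 4.74 in Fgf10-undetected cells, a difference of -2.02 (SE 0.41, limma adjusted p = 0.00283), below 0 on 5 of 6 plates. Vnn1 had 1.41 and 1.26 in Fgf10-detected cells, against 3.94 and 3.55 in Fgf10-undetected cells, a difference of -2.41 (SE 0.46, adjusted p = 0.000721), below 0 on 6 of 6 plates, and was found in 26.2% against 57.6%. Neither replicate range overlapped between the states. On means per plate the adjusted p was 0.299 for Oc90 and 0.179 for Vnn1, and limma called 0 genes there (801 had an unadjusted p below 0.05). Without the replicate block it was 0.191 for both. The 2 of 7 genes stand beside 0.276% of all genes called. Leaving out plate 3 ended both calls (adjusted p = 0.212 for each), and plates 2 and 6 also that of Oc90. Over the 15 alternatives the adjusted p reached 0.774 for Oc90 and 0.850 for Vnn1, both in cells without a source well. The other 5, Car14 at 0.88 (0.345) among them, did not pass. Fgf10-detected and Fgf10-undetected cells had medians of 4888 and 4730.5 genes found, and 26.2% and 32.6% had no source well.

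Top2a was found in 99 otic epithelium-like cells and not in 35. Car14 had replicate means of 6.02 and 5.66 in Top2a-detected cells, against 4.73 and 4.02 in Top2a-undetected cells, a difference of 1.47 (SE 0.44, limma adjusted p = 0.0453), above 0 on 5 of 6 plates. Removal of any 1 of the 6 plates ended this call (adjusted p from 0.0881 to 0.277), and the fit on means per plate gave 0.226. This 1 of 7 stands beside 2.12% of all genes called, of which 214 of 215 were higher, and Top2a-detected cells had a median of 4988 genes found, against 4448 in Top2a-undetected cells, with 24.2% against 48.6% without a source well. Fbxo2 (-1.33, adjusted p = 0.214), Wfdc2 (0.69, 0.298) and Oc90 (0.82, 0.566) did not pass, nor did the other 3.

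**Figure D4:**
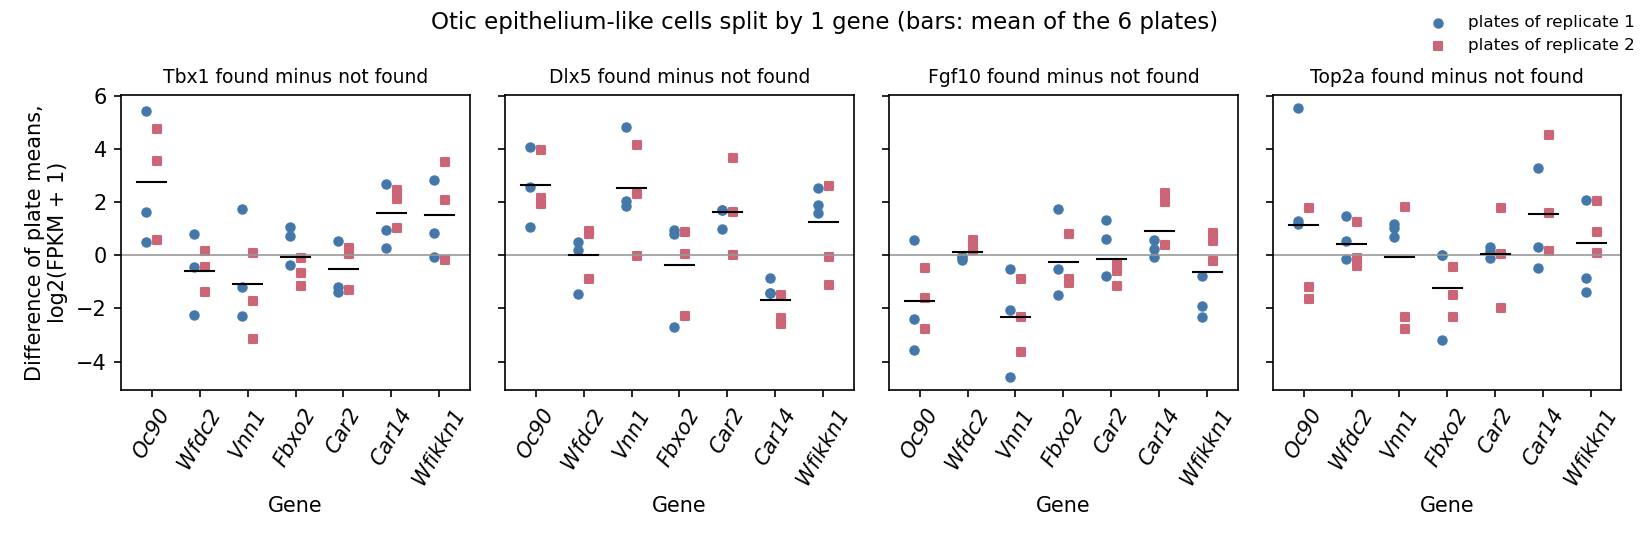
Difference in mean log2(FPKM + 1) between otic epithelium-like cells with and without Tbx1, Dlx5, Fgf10 or Top2a, for each of the 7 genes on each of the 6 plates (circles for replicate 1, squares for replicate 2), with bars for the mean of the 6 plates. Oc90 and Car14 lie above 0 on 6 of 6 plates for Tbx1, while for Dlx5 Oc90 lies above 0 and Car14 below 0 on 6 of 6.

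Wfdc2 and Fbxo2 passed in none of the 4 splits, and Oc90 and Car14 passed in 3 each. The splits use the same 134 cells, so these counts are not separate evidence. The differences lay within the otic class, beside differences of the 7 genes between classes that chose them. Otic minus early neuroblast-like was 3.45 for Oc90, 4.32 for Wfdc2, 3.29 for Wfikkn1, 2.0 for Vnn1, 2.11 for Car14, 4.88 for Car2 and 2.54 for Fbxo2. Otic minus surface ectoderm-like was 4.12 for Oc90, 4.14 for Wfdc2, 4.27 for Wfikkn1, 3.83 for Car14, 5.32 for Car2 and 2.23 for Fbxo2, and for Vnn1 -0.13 in replicate 1 and 0.13 in replicate 2. Against mesenchyme-like cells the smallest was Car14, at 1.36.

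Relatives and pathway partners of the 7 were read from 8 lists in the same limma fit of class means over 10194 genes. The classes were made from the same cells, so these comparisons are not independent of the clustering. Of all genes, 3.7% were called between otic epithelium-like and early neuroblast-like cells, 3.94% against surface ectoderm-like, 6.07% against neural tube progenitor-like and 5.43% against mesenchyme-like cells. The median difference over all genes was 0.10, 0.17, 0.18 and -0.06 in these 4 comparisons.

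Among the 14 other carbonic anhydrase genes 3 were tested, and 1, Car4, was called in each comparison, higher in otic epithelium-like cells. The list's median difference was 0.87 against early neuroblast-like, 0.69 against surface ectoderm-like, 0.60 against neural tube progenitor-like and 0.22 against mesenchyme-like cells. Car4 was found in 42.5% of the otic epithelium-like cells and in 4.35% to 9.76% of the 4 other classes. Its difference was 2.06 (SE 0.25, limma adjusted p = 2.59e-05) against early neuroblast-like cells and 2.47 (adjusted p = 1.29e-06) against mesenchyme-like cells, and no plate's removal ended any of the 4 calls. Car13 was found in 22.4% of the otic epithelium-like cells and Car12 in 8.96%, while Car1 was found in 0 of 491 cells. Car3, also tested, was found in 15.7% of the otic epithelium-like cells and in more of the early neuroblast-like (31.7%) and mesenchyme-like cells (17.4%). It was found in 13.6% of neural tube progenitor-like and 2.44% of surface ectoderm-like cells.

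Of 11 other otoconial and tectorial matrix genes, 4 were tested. Otol1, encoding otolin, a collagen-like partner of otoconin 90 in the otoconial matrix, was higher in otic epithelium-like cells in all 4 comparisons, by 0.83 against early neuroblast-like (limma adjusted p = 0.00603) and 1.29 against mesenchyme-like cells, in which all cells were at 0. It was found in 28.4% of the otic epithelium-like cells, and leaving out plate 1, 2 or 6 ended the call against early neuroblast-like cells, with a highest adjusted p of 0.112. Sparc, a calcium-binding matrix protein gene, was higher against mesenchyme-like cells by 2.99 and Sparcl1 was lower (-2.04), and both calls held without any 1 plate. The call of Sparc against early neuroblast-like cells (1.83, adjusted p = 0.0454) was lost on leaving out any plate but plate 6. The list's median difference ran from 0.76 to 1.04. The tectorial membrane genes Tecta and Otogl were found in 4 cells and 1 cell of 491, Tectb in 0.

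Of 21 genes of otoconia assembly and endolymph ion transport, 7 were tested. Noxo1, the organiser of the NADPH oxidase needed for otoconia, was higher against surface ectoderm-like (1.0), neural tube progenitor-like (0.96) and mesenchyme-like cells (0.94), but each call was lost without plate 3, and the last also without plate 5. Cyba, the oxidase's membrane subunit, was higher by 2.04 against mesenchyme-like cells (limma adjusted p = 0.00821), lost without plate 2 or 3. Otop1 was found in 1 cell, the anion exchanger gene Slc26a4 in 2 cells and its activator Foxi1 in 0. The list's median difference, 0.07 to 0.32, lay near that of all genes.

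Among 12 other protease-inhibitor and follistatin-domain genes, 5 were tested. Spint1 and Spint2, Kunitz inhibitors of epithelial surface proteases, were higher in otic epithelium-like than in neural tube progenitor-like cells by 3.54 and 5.62 and than in mesenchyme-like cells by 3.05 and 5.74, and no plate's removal ended these 4 calls. Neither was called against surface ectoderm-like cells, and Spint2 was found in 100% of both epithelial classes. Against early neuroblast-like cells Spint1 was higher by 2.58 and Spint2 by 1.92. Those 2 calls ended without plate 3 (limma adjusted p = 0.113 for Spint1), and that of Spint2 also without plate 4, 5 or 6. Fstl1 was lower than in mesenchyme-like cells (-2.13, adjusted p = 0.0183), lost without plate 3 or 6. The list's median difference ran from -0.09 to 0.51. Of 13 genes for ligands bound by WFIKKN1, their receptors and the downstream Smad2 and Smad3, 6 were tested. Bmp4 was the only ligand gene among those tested. None of the 6 was called by limma in the 4 comparisons, with 0 or 1 at an unadjusted p below 0.05 in each. The list medians ran from -0.15 to 0.45. Mstn, encoding myostatin, was found in 20 of 491 cells (4.07%) and Gdf11 in 14 (2.85%), below the filter of 5% of cells, so neither was tested.

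Fbxo44, a relative of Fbxo2 in the same subfamily of F-box genes, was the 1 gene called of 5 tested from the F-box list. It was found in 75.4% of the otic epithelium-like cells and was higher there by 2.27 against early neuroblast-like, 3.05 against surface ectoderm-like, 1.79 against neural tube progenitor-like and 3.04 against mesenchyme-like cells. The call against neural tube progenitor-like cells was lost on leaving out plate 2, 3, 5 or 6 (limma adjusted p from 0.0595 to 0.0849), and the others held without any 1 plate. The list's median ran from -0.09 to 0.21. None of the 11 tested genes for vanins and coenzyme A or glutathione synthesis was called by limma, with 0 to 2 at an unadjusted p below 0.05 and list medians from -0.10 to 0.44. Of 22 tested genes of the secretory pathway machinery, 0 were called against early neuroblast-like cells (5 at an unadjusted p below 0.05), 2 higher and 1 lower against surface ectoderm-like, 5 higher against neural tube progenitor-like and 1 higher against mesenchyme-like cells. The 4 largest of these 5 were Kdelr2 (1.94), a retrieval receptor of the endoplasmic reticulum, Pdia4 (1.37), Ssr2 (1.04) and Pdia6 (1.01), and each was lost on leaving out at least 1 plate. The list's median difference ran from 0.16 to 0.60.

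The same lists in the 4 splits of otic epithelium-like cells gave 9 calls, named here because they are few, after their values were seen. Of 67 list genes tested in each split, 5 were called with Tbx1 (7.46%, against 1.07% of all genes), 3 with Dlx5 (4.48%, against 0.888%), 0 with Fgf10 (9 at an unadjusted p below 0.05, against 0.276% of all genes called) and 1 with Top2a (1.49%, against 2.12%). With Dlx5, Car4 was higher by 2.44 (SE 0.46, limma adjusted p = 0.00011), Sparc higher by 1.74 and Spp1, encoding the matrix phosphoprotein osteopontin, lower (-1.59). With Tbx1, Spp1 was higher by 2.0 (adjusted p = 4.93e-08), Bmp4 by 1.74, Sparcl1 by 1.51 and Car13 by 1.22, and Otol1 was lower (-1.18). With Top2a, Kdelr2 was higher by 1.91. So Car4 moved with Dlx5 in the same direction as Oc90, Vnn1 and Car2, and Spp1 moved with Tbx1 and Dlx5 in the directions of Car14. On means per plate 8 of the 9 did not pass, and Spp1 with Tbx1 did (limma adjusted p = 0.0259). Car4 with Dlx5 had 0.0517 there and Otol1 with Tbx1 0.264. Each of the 9 was also lost in cells without a source well and on leaving out at least 1 plate. Of 15 alternatives, 2 ended the call of Spp1 with Tbx1 (highest adjusted p 0.182) and 4 that of Car4 with Dlx5 (0.615). By contrast 13 ended that of Otol1 with Tbx1 (0.936), and 9 each those of Car13 with Tbx1 (0.747) and Kdelr2 with Top2a (0.550).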

How the data were processed

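The deposited table gave 1 value per gene and cell, read here as log2(FPKM + 1) made by the authors: 99.7% of values above 0 turned back into FPKM numbers of 6 significant digits (relative tolerance 1e-07). The submitters' processing notes name TopHat, Bowtie, Bowtie2, Cufflinks, SAMtools, cutadapt and FastQC, without versions, and the build mm10. Of 19659 rows, 132 of repeated identifiers and those without a unique symbol in GENCODE M21 were dropped, which left 19494 genes. Depth in reads is unknown.

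Cells were clustered (scanpy 1.11.5, leidenalg 0.10.2, resolution 1, 15 principal components, 15 neighbours) on 65 markers without the 7 genes. Levels were averaged per class or state and replicate and fitted with limma 3.58.1 (R 4.3.3), with a trend and the replicate as a block, since the means of a replicate come from the same plates. Whether replicates came from separate embryos is not known, so p-values measure the spread between these samples, which may be technical. Genes found in at least 5% of cells were tested, with a threshold of 0.05 on the Benjamini-Hochberg adjusted p. The fit was tested on simulated data. The 7 genes, the gene lists and the 4 splits were chosen with earlier results of these data known. Named besides the 7 were the 3 genes most like each, the 10 most like all 7, and list genes called between classes, up to 4 a list; a gene this rule names is not reported here. Alternatives were other pseudocounts, filters, gates and clusterings, means per plate, each plate left out, and cells without or corrected for transfer between wells. No column of the table was left unused.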

Additional observations from a re-analysis of the deposited data

Results flagged for a closer look

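Car2 on plate 2 stood apart from the other plates. Its mean log2(FPKM + 1) in the otic epithelium-like cells there was 3.46, the lowest of 6 plates, with a gap to the next plate that was large for the whole range. Chance alone gives about 1 such mark in 20 groups of plates, and 7 genes were looked at, each in all cells and in otic epithelium-like cells.

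The plate differences of Wfdc2 lay on opposite sides of 0 in the 2 replicates when otic epithelium-like cells were split by Fgf10. The mean plate difference, Fgf10-detected minus Fgf10-undetected, was -0.0995 in replicate 1 and 0.324 in replicate 2, with every plate of a replicate on its own side of 0. The difference between the replicates was not tested.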

How the results depend on the processing

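No alternative turned the direction of any of the 10 calls of the 7 genes in the splits, but limma lost 8 of the 10 without the replicate block, 6 on means per plate and 9 in cells without a source well. The cause was not tested, beyond the last setting holding 41 of the 134 otic epithelium-like cells. Replicate values pair because the states share plates; without the block 29 genes were called for Tbx1, 0 for Dlx5 (912 at an unadjusted p below 0.05), 0 for Fgf10 (763) and 87 for Top2a. On means per plate 20 were called for Tbx1, 8 for Dlx5 and 0 for Fgf10 (801). In cells without a source well 15 were called for Tbx1, 0 for Dlx5 (663), 12 for Top2a, and 107, 122 and 112 against early neuroblast-like, surface ectoderm-like and neural tube progenitor-like cells, while the mesenchyme-like comparison had too few cells. With the log2 of the mean FPKM, 49 were called for Tbx1, 64 for Fgf10, 8 for Top2a, 222 against early neuroblast-like and 168 against surface ectoderm-like cells. A split at an FPKM of 5 gave 24 for Dlx5 and 10 for Fgf10. For Fgf10, no filter gave 18 and correction for transfer 17. At resolution 0.6, 615 were called against surface ectoderm-like cells, and early neuroblast-like cells formed no class of their own.

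Leaving out 1 plate gave 167 to 358 calls against early neuroblast-like, 224 to 339 against surface ectoderm-like, 331 to 487 against neural tube progenitor-like and 272 to 474 against mesenchyme-like cells, and 15 to 86 for Tbx1, 0 to 54 for Dlx5, 3 to 36 for Fgf10 and 76 to 177 for Top2a. Differences near 0 that changed sign there were Fbxo2 with Tbx1 (-0.20 to 0.13), Dlx5 (-0.69 to 0.34) and Fgf10 (-0.75 to 0.0872), Wfdc2 with Dlx5 (-0.42 to 0.29), Car2 with Fgf10 (-0.23 to 0.0317) and Top2a (-0.50 to 0.26), Vnn1 with Top2a (-1.09 to 0.22) and Wfikkn1 with Top2a (-0.00991 to 0.53). Other uncalled differences turned sign too: Fbxo2 with Tbx1 to 0.0454 after correction and 0.0380 at an FPKM of 5, Wfdc2 with Dlx5 to 0.0109 on means per plate and 0.253 after correction, and Car2 with Top2a to 0.0358 on means per plate. In cells without a source well Car2 turned to 1.26 with Fgf10 and 1.06 with Top2a, Car14 to -0.219 with Fgf10 and Wfdc2 to -0.0436 with Top2a. After correction Oc90 turned to -0.00619 and Wfikkn1 to -0.0937 with Top2a.

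Shares of the otic epithelium-like cells moved with transfer. In cells without a source well they were 43.9% for Oc90, 70.7% for Fbxo2, 36.6% for Vnn1, 92.7% for Wfdc2 and 65.9% for Wfikkn1. Corrected, they were 52.2% for Oc90, 58.2% for Fbxo2, 38.8% for Vnn1, 94.0% for Wfdc2, 76.1% for Car2, 78.4% for Car14 and 70.9% for Wfikkn1. At an FPKM of 5 they were 55.2% for Fbxo2, 42.5% for Vnn1 and 96.3% for Wfdc2, and above 0 they were 66.4% for Fbxo2 and 49.3% for Vnn1. Leaving out 1 plate gave 62.5% to 65.5% for Fbxo2, 43.6% to 50.9% for Vnn1 and 96.4% to 98.2% for Wfdc2. The median co-expression of 0.27 was 0.277 at an Epcam level of 3, 0.170 at 7, 0.237 without source wells, 0.282 corrected, 0.281 by Pearson, 0.286 by Pearson with a pseudocount of 0.1, and 0.25 to 0.31 leaving out 1 plate. Of 34 list calls between classes none was reversed, and leaving out plate 3 lost 16, plate 2 lost 10, the log2 of the mean FPKM 11, and cells without a source well 14 of the 23 that had a value there.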
